A study of Rattus norvegicus with 12 samples.

Results

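The interleukins, the tumour necrosis factor (TNF) superfamily and their receptors were followed in the uterus of ovariectomized rats. Members were taken by symbol alone: every gene named Il followed by a number, with any suffix, and every gene whose symbol starts with Tnfsf (ligands) or Tnfrsf (receptors). Among the 14506 genes measured with a probe set that carries 1 symbol there were 87 members, 65 with Il symbols, 8 with Tnfsf symbols and 14 with Tnfrsf symbols. The uteri came from young adult female Lewis rats without ovaries, and thus without their main source of estrogens, 3 rats in each of 4 groups. E2+3-MC rats received 17β-estradiol (E2) at 4 µg/kg per day together with 3-methylcholanthrene (3-MC) at 15 mg/kg per day. E2 rats and 3-MC rats received 1 of these compounds at the same dose, and vehicle rats received dimethyl sulfoxide (DMSO). 3-MC is an aromatic hydrocarbon of the kind found in soot and tar, and a ligand of the AhR, the aryl hydrocarbon receptor, which regulates transcription once bound. Treatment lasted 3 days, the uterus was taken 24 hours after the last dose, and total RNA of each rat was hybridised to 1 Affymetrix array.

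Interleukins and TNF family ligands are signal proteins, most of them made by immune cells, epithelium and stroma, that act through receptor chains on the surface of their target cells. Interleukin 1 and interleukin 17 receptors signal to NF-κB, receptors of the interleukin 2, 6 and 10 type signal through JAK kinases and STAT factors, and TNF receptors recruit adaptor proteins that lead to NF-κB or, through a death domain, to apoptosis. Several members work against the others: the interleukin 1 receptor antagonist occupies the interleukin 1 receptor without signalling, and decoy receptors bind a ligand without passing on its signal. Estradiol is known to bring leukocytes into the rodent uterus and to make its epithelium proliferate.

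Promoters are shown for Il1rn and Tnfrsf19, the largest rise and fall among the tested members, and for Il1a and Il1b, whose products bind the same receptor as that of Il1rn. Each sequence covers 250 bases before and 50 bases after the start of the gene in RefSeq, assembly GRCr8, 5′ to 3′ on the strand of the gene. Capitals mark matches, on either strand, to the following motifs. The estrogen response half-site is the core letters GGTCA bound by estrogen receptors. The NF-κB motif was searched as GGG and CC with 5 bases of any kind between them. The AP-1 motif, bound by Fos and Jun proteins, has the letters TGANTCA, and the TATA box, a promoter element found in some genes, was searched as TATAAA. The Il1rn promoter lies at chr3:27520072-27520371 on the plus strand, Il1a at chr3:136989968-136990267 on the minus strand, Il1b at chr3:137036532-137036831 on the minus strand and Tnfrsf19 at chr15:39334517-39334816 on the minus strand.
Il1rn: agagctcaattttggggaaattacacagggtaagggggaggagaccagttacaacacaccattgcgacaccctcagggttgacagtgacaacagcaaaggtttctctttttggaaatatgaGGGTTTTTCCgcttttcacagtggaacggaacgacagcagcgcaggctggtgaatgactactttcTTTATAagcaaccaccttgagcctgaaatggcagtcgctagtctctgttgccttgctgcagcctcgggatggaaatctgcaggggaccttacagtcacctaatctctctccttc
Il1a: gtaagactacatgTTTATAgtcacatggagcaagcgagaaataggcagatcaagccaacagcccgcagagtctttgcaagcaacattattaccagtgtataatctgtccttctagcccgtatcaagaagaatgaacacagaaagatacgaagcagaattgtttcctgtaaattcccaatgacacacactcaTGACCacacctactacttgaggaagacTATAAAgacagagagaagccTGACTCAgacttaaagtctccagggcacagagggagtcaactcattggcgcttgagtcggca
Il1b: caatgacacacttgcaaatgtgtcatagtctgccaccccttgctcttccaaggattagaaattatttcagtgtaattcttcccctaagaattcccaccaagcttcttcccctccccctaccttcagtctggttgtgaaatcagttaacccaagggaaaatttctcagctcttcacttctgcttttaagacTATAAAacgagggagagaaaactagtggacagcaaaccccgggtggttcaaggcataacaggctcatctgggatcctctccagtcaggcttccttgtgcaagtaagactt
Tnfrsf19: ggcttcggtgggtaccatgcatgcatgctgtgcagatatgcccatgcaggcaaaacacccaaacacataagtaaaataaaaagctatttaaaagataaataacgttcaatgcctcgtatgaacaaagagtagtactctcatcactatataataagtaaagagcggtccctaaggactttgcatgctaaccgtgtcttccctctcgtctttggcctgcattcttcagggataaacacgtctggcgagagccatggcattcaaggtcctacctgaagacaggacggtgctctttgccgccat
The Il1rn promoter holds a NF-κB match that starts at base -129 and a TATA box match on the opposite strand at -64. In the Il1a promoter an estrogen response half-site starts at -59 and a TATA box match at -237, both on the opposite strand. An AP-1 match starts at -12 and a TATA box match on the strand of the gene at -32. The Il1b promoter has 1 TATA box match, at -60, and the Tnfrsf19 promoter holds none of these motifs. Promoters of 65 of the 87 members were in the table used; those of Il13ra2 and Tnfsf4 were not among them.

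On the arrays 44 of the 87 members were bright enough to be tested: 28 Il, 5 Tnfsf and 11 Tnfrsf genes. The other 43 were dim, which means that their mean log2(intensity + 16) over the 12 arrays was under 6.44, an intensity of about 71.0, the level under which the lowest 30% of all genes fell. Tests were made with limma on all 10154 brighter genes, a difference is a difference of group means of log2(intensity + 16) ± its standard error with 3 rats in each group, and "called" means an adjusted p under 0.05 over all of these genes. Array medians ran from 86.3 to 124. Vehicle rat 1 stood apart: its interquartile range over probe sets was 3.13 in log2 units, where the other 11 arrays had 2.16 to 2.72, and it had the highest vehicle value of many members. In whole uterus, fewer cells that make a transcript and less of it per cell cannot be told apart. Complement C3, a textbook estradiol-induced gene of the uterus, had intensities of 4767, 3979 and 6606 in E2+3-MC rats, 6741, 5812 and 5448 in E2 rats, 90.6, 89.5 and 175 in 3-MC rats and 59.5, 33.0 and 36.8 in vehicle rats. Cyp1a1, the classic AhR target, was dim in every group, between 15.3 and 32.4.

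Estradiol without 3-MC raised 9 of the 44 tested members and lowered 4. The risers were Il1rn, Il13ra2, Il17rb, Il17ra, Il18, Il10rb, Tnfrsf1b, Il4r and Il1b, so 6 receptor genes stood beside 2 interleukin 1 family cytokines and the interleukin 1 receptor antagonist. The genes that fell were Tnfrsf19, Tnfsf10, Tnfrsf9 and Il11ra1, of which 3 belong to the TNF family. The 13 calls are 29.5% of the tested members, beside 18.1% of all 10154 genes. By direction, 20.5% of the members were called higher against 8.7% of all genes, and 9.09% were called lower against 9.44%. The dim filter, which used the mean over all 12 arrays, bears on this split. Il1rn, Il13ra2 and Il17rb were under its limit of 6.44 in both groups without estradiol, with vehicle means of 5.86, 6.12 and 6.06. They passed it only through the brighter estradiol groups. In the other direction, Tnfrsf19 and Tnfrsf9 were under the limit in E2 rats, at 5.90 and 6.03. Tnfsf4, at 7.07 in vehicle and 5.12 in E2 rats, was left out as dim. The median difference of the tested members was -0.09, beside -0.11 for all genes tested. The count and its split depended on single rats. Without vehicle rat 1 there were 17 calls, 13 higher and 4 lower, beside 34.9% of all genes, and all 13 of the original calls were among them. Without vehicle rat 3 there were 11, 4 higher and 7 lower, beside 19.4%, and without E2 rat 1 there were 10, 4 higher and 6 lower, beside 17.5%. Leaving out vehicle rat 2 or E2 rat 3 gave 8 each, 5 higher and 3 lower, beside 14.2% and 9.84%. Quantile normalization gave 21, 12 higher and 9 lower, beside 38.4%. A fit of only the groups compared gave 7, 4 higher and 3 lower, beside 9.46%. The calls lost in it were those of Il17ra, Il10rb, Tnfrsf1b, Il4r, Il1b and Tnfrsf9, with limma adjusted p from 0.0815 to 0.113.

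**Figure D1:**
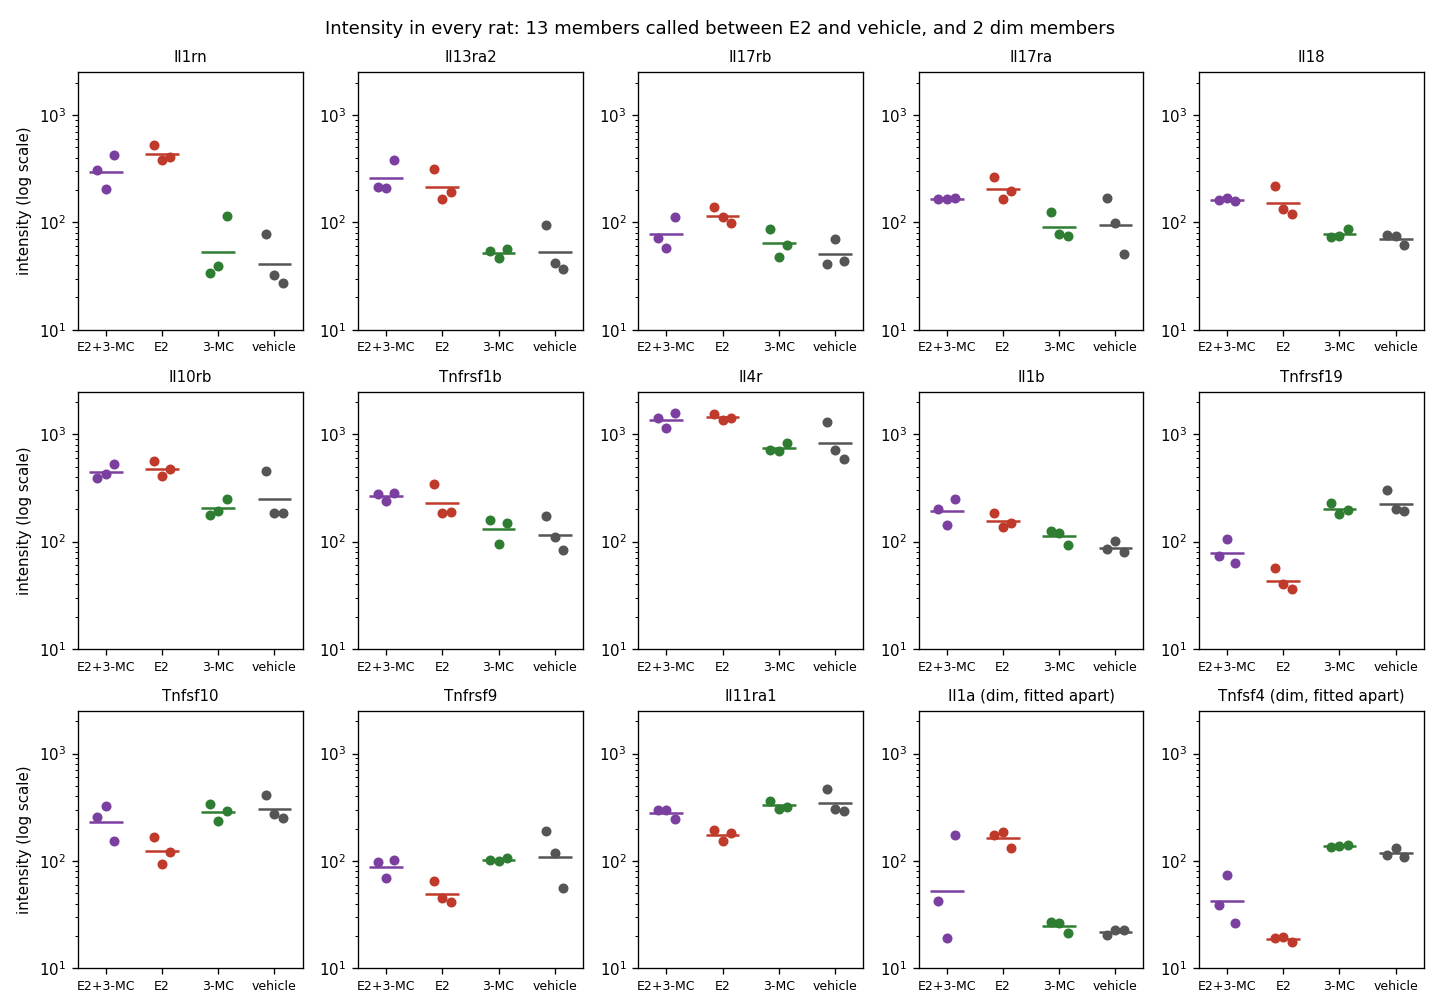
Intensity on a log axis of the 13 called members and of the dim members Il1a and Tnfsf4, 1 point per rat, with groups from left to right E2+3-MC, E2, 3-MC and vehicle. A line marks each group's mean of log intensity, with nothing added before the log, turned back to intensity. Il1rn and Il13ra2 separate both estradiol groups from both groups without estradiol, and Tnfrsf19 separates them the other way.

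Of the interleukin 1 family ligands, 10 were measured and 4 tested, and Il1rn, Il18 and Il1b rose in every estradiol comparison. Il1rn, which encodes the interleukin 1 receptor antagonist, had intensities of 528, 381 and 408 in E2 rats, against 78.7, 32.5 and 27.0 in vehicle rats. All 3 E2 rats lay above all vehicle rats, and the difference was 2.95 ± 0.35 (limma adjusted p = 1.55e-05), the largest rise among the tested members. With both compounds Il1rn had 306, 204 and 422, against 34.0, 39.4 and 114 in 3-MC rats, again without overlap, a difference of 2.14 ± 0.35 (limma adjusted p = 6.73e-04). Il1b, the secreted interleukin 1β, had 186, 137 and 149 in E2 rats, against 84.8, 100 and 79.2 in vehicle rats. The groups did not overlap, but at 0.73 ± 0.21 (limma adjusted p = 0.0245) the difference was small, and the call was lost without vehicle rat 3 (adjusted p = 0.0557), E2 rat 1 (0.0795) or E2 rat 3 (0.0686). Il1b in E2+3-MC rats had 201, 143 and 248, against 125, 121 and 92.6 in 3-MC rats, a difference of 0.71 ± 0.21 (limma adjusted p = 0.0494). That call was lost in 9 of the 12 fits that left out 1 rat, with an adjusted p of up to 0.312 without E2+3-MC rat 3. Il18, a cytokine that the inflammasome activates as it does interleukin 1β, had 219, 133 and 120 in E2 rats, against 76.3, 74.4 and 62.0 in vehicle rats. Its difference of 0.96 ± 0.21 (limma adjusted p = 0.00361) came with no overlap. Il18 in E2+3-MC rats had 163, 169 and 157, against 72.6, 74.4 and 86.2 in 3-MC rats, and the difference was 0.94 ± 0.21 (limma adjusted p = 0.00750).

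Il33, the alarmin of the family, was not called. It had 271, 182 and 199 in E2 rats, against 775, 374 and 229 in vehicle rats, a difference of -0.88 ± 0.32 (limma adjusted p = 0.0652), and vehicle rat 1 alone held the value of 775. Il1a, which encodes interleukin 1α, was dim by its mean but not in E2 rats, where it had 173, 184 and 133, against 20.3, 22.5 and 22.8 in vehicle rats. Fitted with no genes left out, Il1a differed by 2.23 ± 0.40 between E2 and vehicle rats (limma adjusted p = 0.00138 over 14506 genes). In E2+3-MC rats its values were far apart, at 42.6, 19.0 and 173, and overlapped those of 3-MC rats, at 27.1, 26.1 and 21.2. The difference there was 0.84 ± 0.40 (limma adjusted p = 0.308). Il1a was brightest in the same E2+3-MC animal, rat 3, that had the highest Il1rn and Il1b of its group. The remaining ligands of the family, Il36a, Il36b, Il36g, Il36rn and Il1f10, were dim on all 12 arrays.

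The receptor chains of interleukin 1 were not called here, though both main chains were called under some other settings. Il1r1, the signalling receptor of interleukin 1, had 228, 118 and 165 in E2 rats, against 375, 249 and 226 in vehicle rats, a difference of -0.70 ± 0.25 (limma adjusted p = 0.0617). Il1rap, the accessory chain that Il1r1 needs, had 211, 148 and 167 in E2 rats, against 162, 90.0 and 69.2 in vehicle rats, a difference of 0.69 ± 0.28 (limma adjusted p = 0.0939). The Il1r1 value of E2 rat 1 lay just above that of vehicle rat 3, and the Il1rap value of vehicle rat 1 lay above that of E2 rat 2, so neither pair of groups was separate. Il1rap was called after quantile normalization (0.85, limma adjusted p = 0.00990), after median centring (0.86, 0.0234), with the rat number as a block (0.0449) and without vehicle rat 1 (0.99, 0.00174). Il1r1 was called after quantile normalization (-0.60, limma adjusted p = 0.00551), with a trended robust prior (0.0482), with the block (0.0186) and without vehicle rat 3 (-0.83, 0.0361) or E2 rat 1 (-0.92, 0.0282), while without vehicle rat 1 its difference was -0.49 (0.0882). Il18bp, the soluble inhibitor of interleukin 18, was tested and not called. The decoy receptor gene Il1r2, Il1rl1 (the receptor of interleukin 33), Il18r1 and Il1rapl1 were dim on all arrays, and Il1rl2, the interleukin 36 receptor, was dim by its mean.

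Among the chains that bind interleukins 2, 3, 4, 5, 7, 9, 13, 15 and 21, Il13ra2 and Il4r rose with estradiol, while no ligand of the group was called. Il13ra2, a receptor of interleukin 13 with a short cytoplasmic tail that is best known as a decoy, had 315, 164 and 193 in E2 rats, against 93.9, 41.8 and 37.0 in vehicle rats. There was no overlap, and the difference was 1.74 ± 0.29 (limma adjusted p = 5.13e-04). With both compounds it had 214, 210 and 384, against 53.7, 46.6 and 56.9 in 3-MC rats, a difference of 2.01 ± 0.29 (limma adjusted p = 2.27e-04). Il4r, the chain shared by the interleukin 4 and interleukin 13 receptors, had 1549, 1369 and 1408 in E2 rats, against 1314, 717 and 592 in vehicle rats. Vehicle rat 1 lay close below the E2 rats, the difference was 0.79 ± 0.24 (limma adjusted p = 0.0325), and it was 1.13 (3.54e-05) without that rat. The call was lost without vehicle rat 2 (adjusted p = 0.104), vehicle rat 3 (0.113), E2 rat 1 (0.0844), E2 rat 2 (0.0751) or E2 rat 3 (0.0914). Il4r in E2+3-MC rats had 1419, 1136 and 1583, against 717, 702 and 835 in 3-MC rats, a difference of 0.85 ± 0.24 (limma adjusted p = 0.0382) that was no longer called in 8 of the 12 fits without 1 rat, with an adjusted p of up to 0.191.

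The ligands Il4 and Il13 themselves were dim on all arrays, as were Il2, Il3, Il5, Il7 and Il21. Il15, which supports natural killer cells, had 233, 154 and 157 in E2 rats, against 187, 239 and 214 in vehicle rats, a difference of -0.23 ± 0.19 (limma adjusted p = 0.424). Il9 differed by -0.17 ± 0.17 (limma adjusted p = 0.545), and by 0.003 after quantile normalization. The other tested receptor chains of the group, Il13ra1, Il2ra, Il2rb, Il2rg and Il3ra, were not called in any comparison with the settings used here. Il13ra1 had 517, 358 and 397 in E2 rats, against 520, 231 and 170 in vehicle rats. Vehicle rat 1 lay above all E2 rats, and the other vehicle rats lay below them. Il5ra, Il7r and Il9r were dim on all arrays, and Il21r was dim by its mean.

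Of the 3 receptor genes of the interleukin 17 family 2 rose with estradiol, and the ligand genes gave no call. Il17rb, the chain that binds interleukin 25, had 139, 113 and 99.1 in E2 rats, against 41.3, 70.5 and 44.1 in vehicle rats. The groups did not overlap, and the difference was 0.98 ± 0.25 (limma adjusted p = 0.0106). Il17rb in E2+3-MC rats had 72.1, 57.4 and 113, against 87.5, 47.5 and 62.3 in 3-MC rats. These groups overlapped, with a difference of 0.23 ± 0.25 (limma adjusted p = 0.709). Il17ra, the chain common to several receptors of the family, had 267, 164 and 194 in E2 rats, against 169, 98.7 and 50.9 in vehicle rats, where vehicle rat 1 lay above E2 rat 2. Its difference was 0.97 ± 0.30 (limma adjusted p = 0.0302), and the call was lost without vehicle rat 2 (adjusted p = 0.0594), vehicle rat 3 (0.114), E2 rat 1 (0.115) or E2 rat 3 (0.0823). Without vehicle rat 3 the Il17ra difference was 0.60, and without vehicle rat 1 it was 1.33. In a fit of only the groups compared the Il17ra call was lost as well (limma adjusted p = 0.0815). Il17ra in E2+3-MC rats had 165, 166 and 170, against 126, 77.3 and 74.8 in 3-MC rats. These groups did not overlap, but the difference of 0.78 ± 0.30 was not called (limma adjusted p = 0.128). It was called after quantile normalization (0.80, limma adjusted p = 0.0240), with the rat number as a block (0.0435), without vehicle rat 1 (0.00758) or vehicle rat 3 (0.0374), and in a fit of only the groups compared (0.00418). Il17re was tested and not called. Il17b differed by 0.01 ± 0.19 between E2 and vehicle rats (limma adjusted p = 0.983), and Il17a and Il17f, the cytokines of T helper 17 cells, were dim on all arrays.

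Of the interleukin 10 family only the receptor gene Il10rb was bright enough to be tested. Il10rb, the chain shared by the receptors of interleukin 10, interleukin 22 and the lambda interferons, had 563, 408 and 479 in E2 rats, against 459, 185 and 185 in vehicle rats. Vehicle rat 1 overlapped the E2 rats, the difference was 0.89 ± 0.28 (limma adjusted p = 0.0356), and without that rat it was 1.30 (1.12e-05). The call was lost without vehicle rat 2 (adjusted p = 0.140), vehicle rat 3 (0.106), E2 rat 1 (0.111), E2 rat 2 (0.0572), E2 rat 3 (0.105), 3-MC rat 1 (0.0503) or 3-MC rat 2 (0.0508). In E2+3-MC rats Il10rb had 392, 426 and 532, against 178, 193 and 248 in 3-MC rats, without overlap, a difference of 1.07 ± 0.28 (limma adjusted p = 0.0226). That call was lost without 3-MC rat 1 (adjusted p = 0.113), 3-MC rat 2 (0.101) or E2+3-MC rat 3 (0.127). Il10ra, the chain that binds interleukin 10, was dim by its mean, with 112, 53.5 and 65.1 in E2 rats, against 52.0, 26.1 and 26.8 in vehicle rats. Fitted with no genes left out, it differed by 0.85 ± 0.24 (limma adjusted p = 0.0274). Il10, Il20, Il22, Il24 and Il20ra were dim on all arrays, and Il22ra2, a soluble interleukin 22 binding protein, was dim by its mean.

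Of the interleukin 6 and 12 families, Il11ra1 fell with estradiol. Il11ra1, the receptor of interleukin 11, which mice need for the decidual response to an embryo, had 192, 152 and 181 in E2 rats, against 471, 305 and 289 in vehicle rats. No rats overlapped, and the difference was -0.93 ± 0.20 (limma adjusted p = 0.00412). In E2+3-MC rats it had 299, 296 and 244, against 362, 306 and 319 in 3-MC rats. These groups did not overlap either, but the difference was -0.22 ± 0.20 (limma adjusted p = 0.644). Il11 itself differed by -0.16 ± 0.20 between E2 and vehicle rats (limma adjusted p = 0.604), and Il12a, a subunit of interleukin 12, by 0.11 ± 0.23 (0.785). Il6st, which encodes gp130, a signal chain shared by receptors of the interleukin 6 type, had 1900, 1655 and 1653 in E2 rats, against 2774, 1676 and 1385 in vehicle rats, a difference of -0.10 ± 0.22 (limma adjusted p = 0.789). Il6r was tested and not called, Il6, Il12b and Il12rb2 were dim on all arrays, and Il12rb1, Il23a and Il27ra were dim by their means. Il16, a chemoattractant of CD4+ cells, and Il34, a ligand of the colony stimulating factor 1 receptor, were near no difference, at -0.28 ± 0.22 and 0.05 ± 0.20 (limma adjusted p = 0.415 and 0.901).

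Of the 5 tested TNF family ligands, 1 fell with estradiol and none was called higher. Tnfsf10 encodes TRAIL, a ligand that can trigger apoptosis. It had 168, 92.7 and 122 in E2 rats, against 415, 271 and 253 in vehicle rats, with no overlap and a difference of -1.20 ± 0.27 (limma adjusted p = 0.00539). With both compounds Tnfsf10 had 255, 321 and 152, against 339, 235 and 289 in 3-MC rats, an overlap, and a difference of -0.27 ± 0.27 (limma adjusted p = 0.678). Tnfsf12, which encodes TWEAK, had 272, 228 and 213 in E2 rats, against 537, 321 and 300 in vehicle rats. It was lower in every E2 rat and not called, at -0.62 ± 0.23 (limma adjusted p = 0.0668). Its receptor gene Tnfrsf12a had the opposite sign, at 0.77 ± 0.29 (limma adjusted p = 0.0727), and was called as higher under other settings, among them quantile normalization. Tnfsf13, which encodes the B cell factor APRIL, differed by 0.08 ± 0.23 (limma adjusted p = 0.839), and Tnfsf13b and Tnfsf15 were not called.

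Among the ligands that were dim by their means, Tnfsf4 was low in both estradiol groups. Tnfsf4, the OX40 ligand that costimulates T cells, had 19.2, 19.5 and 17.4 in E2 rats, against 113, 132 and 110 in vehicle rats. In E2+3-MC rats it had 38.5, 74.2 and 26.5, against 136, 137 and 142 in 3-MC rats. The groups did not overlap in either pair. Fitted with no genes left out, the differences were -1.95 ± 0.22 (limma adjusted p = 2.00e-05) and -1.38 ± 0.22 (9.05e-04). Tnfsf11, which encodes RANKL, differed by -0.57 ± 0.17 between E2 and vehicle rats in that fit (limma adjusted p = 0.0342), and by -0.38 (0.0739) after quantile normalization. Tnfsf9, the ligand of Tnfrsf9, was dim by its mean, at -0.24 ± 0.16.

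Of the TNF receptors, Tnfrsf19 fell, Tnfrsf9 fell and Tnfrsf1b rose with estradiol. Tnfrsf19, which encodes TROY, a receptor without a death domain, had 56.6, 39.9 and 36.0 in E2 rats, against 302, 199 and 191 in vehicle rats. The E2 rats lay far below all vehicle rats, and the difference of -2.02 ± 0.22 (limma adjusted p = 6.07e-06) was the largest fall among the tested members. With both compounds Tnfrsf19 had 74.2, 105 and 63.0, against 229, 180 and 198 in 3-MC rats, again without overlap, a difference of -1.19 ± 0.22 (limma adjusted p = 0.00217). Tnfrsf1b, the TNF receptor 2 found mainly on immune and endothelial cells, had 344, 184 and 189 in E2 rats, against 172, 109 and 83.5 in vehicle rats. Every E2 rat lay above every vehicle rat, with a difference of 0.89 ± 0.27 (limma adjusted p = 0.0302), but the call was lost without vehicle rat 2 (adjusted p = 0.0767), vehicle rat 3 (0.0947) or E2 rat 1 (0.130). Tnfrsf1b in E2+3-MC rats had 277, 237 and 281, against 158, 94.4 and 150 in 3-MC rats, a difference of 0.93 ± 0.27 (limma adjusted p = 0.0404) that was lost in 8 of the 12 fits without 1 rat, with an adjusted p of up to 0.247. Tnfrsf9, the costimulatory receptor 4-1BB, had 64.7, 45.1 and 41.1 in E2 rats, against 191, 119 and 56.0 in vehicle rats. The groups overlapped, the difference was -0.95 ± 0.29 (limma adjusted p = 0.0299), and the call was lost without vehicle rat 2 (-0.90, adjusted p = 0.0765), E2 rat 2 (-0.90, 0.103) or E2 rat 3 (-0.85, 0.129). Without vehicle rat 1, which held the value of 191, the Tnfrsf9 difference was -0.59 and was called (limma adjusted p = 0.0417). With 3-MC present its difference was -0.19 ± 0.29 (limma adjusted p = 0.819).

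Of the receptors with a death domain and a Tnfrsf symbol none was called here, though Tnfrsf1a and Tnfrsf21 were under other settings. Tnfrsf1a, the main TNF receptor, had 506, 369 and 481 in E2 rats, against 864, 275 and 283 in vehicle rats, a difference of 0.13 ± 0.32 (limma adjusted p = 0.819). This value rests on vehicle rat 1: without it the difference was 0.65 and was called (limma adjusted p = 0.00949). Tnfrsf21, which encodes death receptor 6, had 511, 327 and 355 in E2 rats, against 1144, 448 and 411 in vehicle rats, a difference of -0.59 ± 0.30 (limma adjusted p = 0.187). After quantile normalization the Tnfrsf21 difference was also -0.59 and was called (limma adjusted p = 0.00478), and without vehicle rat 1 it was -0.13 (0.628). Tnfrsf11b, the secreted decoy osteoprotegerin, had 702, 508 and 575 in E2 rats, against 1056, 460 and 359 in vehicle rats, a difference of 0.07 ± 0.30 (limma adjusted p = 0.895). Tnfrsf10b, Tnfrsf14, Tnfrsf26 and Tnfrsf4 were tested and not called, and Tnfrsf8, Tnfrsf17 and Tnfrsf18 were dim on all arrays.

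**Figure D2:**
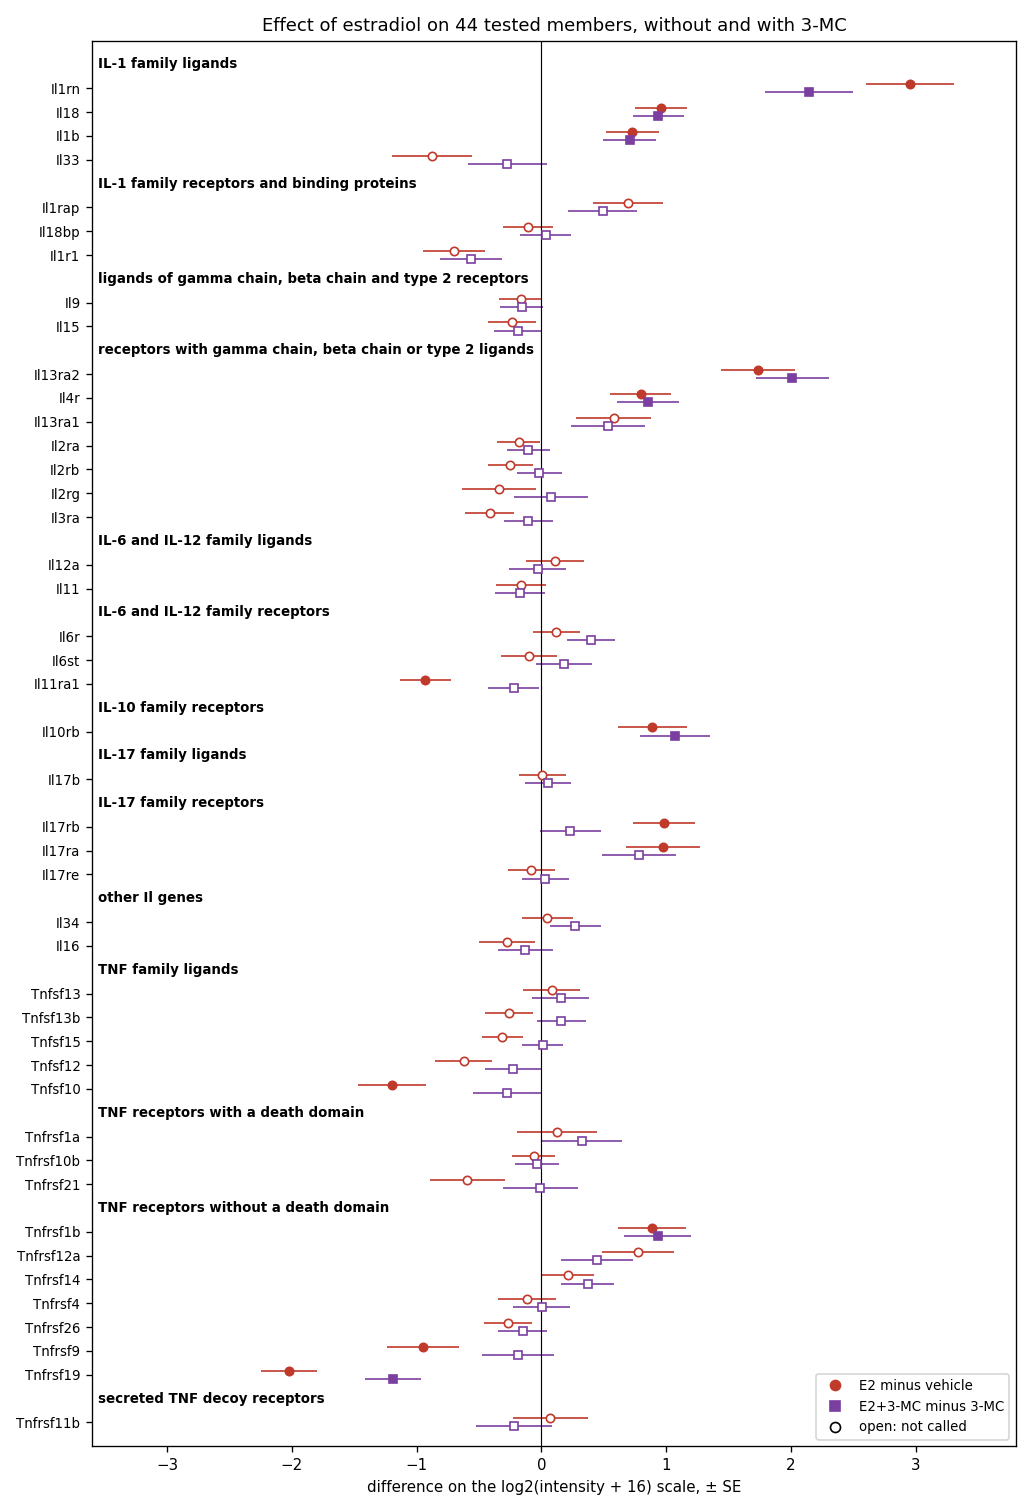
Difference of log2(intensity + 16) ± standard error of the tested members, grouped by role, for E2 minus vehicle and E2+3-MC minus 3-MC, with 3 rats in each group and filled symbols for called members. Il1rn and Il13ra2 stand furthest to the right and Tnfrsf19 furthest to the left in both comparisons.

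Of the 13 members called between E2 and vehicle rats, 10 had groups that did not overlap. Over all tested members, groups that did not overlap were found for 13 of 44, or 29.5%, beside 27.2% of all genes, and at an unadjusted p under 0.05 there were 18 members, beside 32.1% of all genes. With dim genes kept, 18 of 87 members were called, 11 higher and 7 lower, beside 15% of 14506 genes. The 5 added by keeping them were Il1a, Il10ra, Tnfsf4, Tnfsf11 and Il1rapl1, of which Il1rapl1 was under the dim limit in every rat.

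The estradiol effect could be measured a second time in rats that share no array with the first pair, E2+3-MC against 3-MC rats. Only the differences are free of shared arrays. The calls are not, since the spread of each gene was estimated over all 12 arrays. Il1b, for example, lost its call in this second pair without vehicle rat 2 (limma adjusted p = 0.0566) or E2 rat 1 (0.0528), 2 (0.0636) or 3 (0.0772). There 8 members were called, 18.2% of those tested beside 8.21% of all genes: Il1rn, Il13ra2, Il10rb, Il18, Tnfrsf1b, Il4r and Il1b were higher and Tnfrsf19 was lower. The 7 higher calls stand beside 6.82% of all genes and the 1 lower call beside 1.39%. All 8 were also called, in the same direction, between E2 and vehicle rats, which is 100% of the 8 and 61.5% of the 13. The 13 all kept their sign, and 9 of them differed by less in size with 3-MC present. Because the 13 were chosen by their calls in the first pair, that choice alone favours smaller differences in the second. Across the 44 tested members the paired differences had a Pearson correlation of 0.93 and a Spearman correlation of 0.87, given as a description, since genes of the same arrays are not independent. The shared calls, kept signs and correlations were not computed over all genes, so they do not set the members apart from other genes. Il17rb, Il17ra, Il11ra1, Tnfrsf9 and Tnfsf10 were called without 3-MC and not with it, although Il17ra was called with it under the settings given above. That does not show a difference between the pairs; the test of the difference itself is the interaction below. Rats did not overlap in 15 of 44 members, or 34.1%, beside 37.3% of all genes, and 10 members had an unadjusted p under 0.05, beside 20% of all genes. With dim genes kept, 8 of 87 members were called, beside 5.99%: Tnfsf4 and Il1rapl1 were added, and Il1b and Tnfrsf1b were lost.

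**Figure D3:**
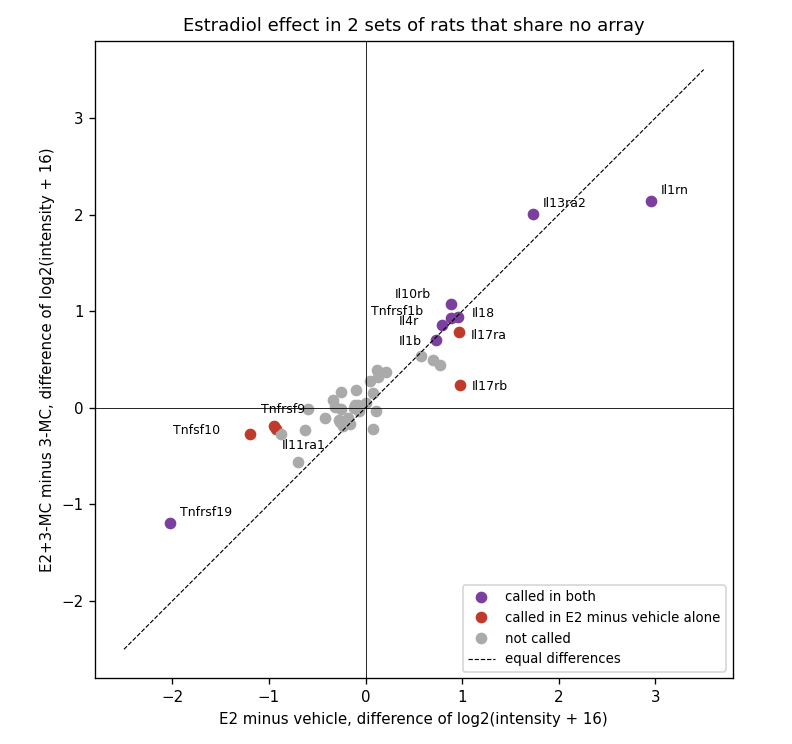
Difference of log2(intensity + 16) for E2 minus vehicle (horizontal axis) against E2+3-MC minus 3-MC (vertical axis), 1 point per tested member, 44 in all. The dashed line marks equal differences; Il1rn, Tnfrsf19, Tnfsf10, Tnfrsf9, Il11ra1 and Il17rb lie nearer to 0 on the vertical axis than on the horizontal one.

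Between E2+3-MC and vehicle rats 6 members were called, 13.6% of those tested beside 7.84% of all genes. Il1rn (2.43 ± 0.35), Il13ra2 (1.98 ± 0.29), Tnfrsf1b (1.08 ± 0.27), Il18 (1.05 ± 0.21) and Il1b (1.01 ± 0.21) were higher, and Tnfrsf19 (-1.35 ± 0.22) was lower, with limma adjusted p from 1.88e-04 to 0.0172. The 5 higher calls stand beside 6.06% of all genes and the 1 lower call beside 1.78%. The Tnfrsf1b call was lost without vehicle rat 2 (adjusted p = 0.0567), vehicle rat 3 (0.0736), E2+3-MC rat 1 (0.0746) or E2+3-MC rat 3 (0.0750). In a fit of only the groups compared the calls of Tnfrsf1b (limma adjusted p = 0.0666) and Il1b (0.0644) were lost. Without vehicle rat 1 there were 14 calls, 13 higher and 1 lower, beside 26.6% of all genes. At an unadjusted p under 0.05 there were 12 members, beside 18.7% of all genes, and rats did not overlap in 10, beside 17.9%. With dim genes kept, 8 of 87 members were called, beside 6.03%, Il10ra and Tnfsf4 being the additions. This comparison shares the vehicle arrays with the first comparison and the E2+3-MC arrays with the second.

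3-MC alone changed no member detectably. Between 3-MC and vehicle rats limma called 0 members and 0% of all genes, and at an unadjusted p under 0.05 there were 0 members, beside 0.808% of all genes. The median difference of the tested members was -0.004, and each tested member lay between -0.33 and 0.36. Il15 was the only tested member whose rats did not overlap, beside 3.1% of all genes, with 258, 247 and 261 in 3-MC rats, against 187, 239 and 214 in vehicle rats, a difference of 0.25 ± 0.19. For Il1rn the difference was 0.29 ± 0.35 and for Tnfrsf19 -0.16 ± 0.22. With a median standard error of 0.22, differences within that range were not detectable.

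Adding 3-MC to estradiol also gave no call. Between E2+3-MC and E2 rats limma called 0 members and 0% of all genes, and 5 members had an unadjusted p under 0.05, beside 9.23% of all genes. These were Tnfsf10 (0.83 ± 0.27), Tnfrsf19 (0.68 ± 0.22), Tnfrsf9 (0.67 ± 0.29), Il11ra1 (0.63 ± 0.20) and Tnfsf13b (0.41 ± 0.19), all higher in E2+3-MC rats, and the lowest adjusted p was 0.488. Rats did not overlap in 6 members, beside 17.9% of all genes. Tnfsf13b was chosen after its values were seen. Its intensities were 130, 161 and 124 in E2+3-MC rats, against 118, 98.2 and 83.9 in E2 rats. The median difference over all genes was 0.15 here, beside 0.18 for the tested members. The first 4 of these 5 are the genes called lower between E2 and vehicle rats, a comparison that uses the same E2 arrays.

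The interaction, which asks whether the estradiol effect differs with and without 3-MC, called 0 members and 0% of all genes. At an unadjusted p under 0.05 there were 4 members, beside 2.93% of all genes: Tnfsf10 (0.92 ± 0.38), Tnfrsf19 (0.83 ± 0.32), Il11ra1 (0.71 ± 0.29) and Il17rb (-0.75 ± 0.35). In each the sign is that of a smaller estradiol effect with 3-MC present. All 4 are among the members called between E2 and vehicle rats, whose arrays the interaction also uses. The lowest adjusted p of a member was 0.977, and with a median standard error of 0.31 a difference of this size could not be shown with 3 rats in each group.

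Genes that act with these families were counted from lists of TNF and interleukin signalling genes, and the counts stand beside 8.7% of all genes called higher and 9.44% called lower in E2 against vehicle rats. Of 13 tested TNF receptor signal proteins, 4 rose and 0 fell in E2 against vehicle rats: Birc3 (2.04 ± 0.30), which encodes an inhibitor of apoptosis, Casp8 (1.10 ± 0.22), the initiator caspase of death receptors, Tank (1.04 ± 0.27) and Tnip1 (0.69 ± 0.22). The list's median difference was 0.26. Of 13 tested interleukin 1 and Toll receptor signal proteins none was called, and the median was 0.01. Of 11 NF-κB subunits and inhibitors 1 rose, Nfkbiz (0.60 ± 0.20), with a median of 0.15. Of 16 tested JAK, STAT and SOCS genes 4 rose, among them Stat2 (1.14 ± 0.26), Socs2 (1.04 ± 0.28) and Stat5a (0.96 ± 0.21), with a median of 0.14. Of 15 tested chains and ligands of other cytokines 5 rose and 1 fell. Lif, a cytokine of the interleukin 6 type that mice need for implantation, rose by 1.97 ± 0.25, its receptor gene Lifr had a difference of -1.55 ± 0.27, and Ifngr1 rose by 1.17 ± 0.29. Of 7 tested TNF family genes under other symbols 1 rose, Ngfr (1.24 ± 0.22), while Fas and Cd40 were not called and Tnf itself was dim. All changes named here had a limma adjusted p under the threshold.

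In E2+3-MC against 3-MC rats, where 6.82% of all genes were called higher and 1.39% lower, Birc3 (1.87 ± 0.30), Casp8 (0.88 ± 0.22) and Tank (0.96 ± 0.27) rose among the TNF receptor signal proteins, Stat2 (1.17 ± 0.26) among the JAK, STAT and SOCS genes, and Lif (1.05 ± 0.25), Ifngr1 and Csf3r among the other cytokine genes. Nfkbia, the inhibitor of NF-κB, was called higher (0.88 ± 0.22, limma adjusted p = 0.0148), where between E2 and vehicle rats it differed by 0.63 ± 0.22 (0.0529). Nfkbiz was not called (0.46 ± 0.20, limma adjusted p = 0.209). Ngfr was higher again (0.90 ± 0.22, limma adjusted p = 0.0150). Casp1, the caspase that cuts pro-interleukin 1β, rose by 0.99 ± 0.26 (limma adjusted p = 0.0243). Between E2 and vehicle rats it differed by 0.74 ± 0.26 (0.0576).

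**Figure D4:**
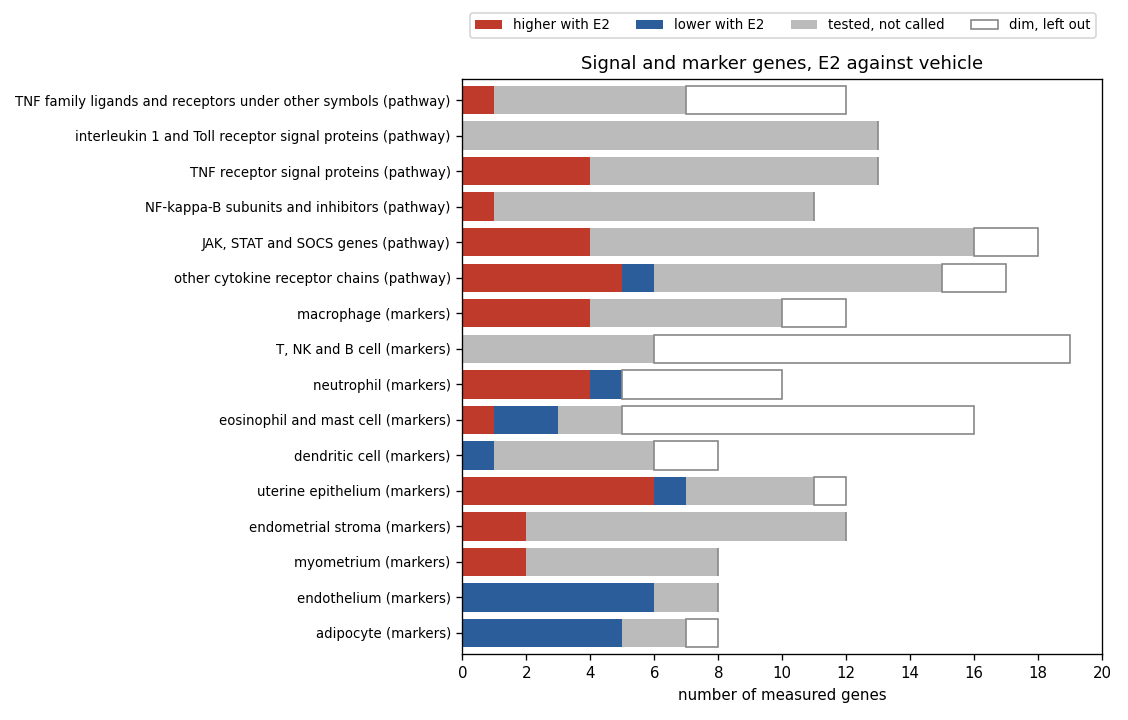
Number of measured genes of each signalling list and each cell type marker list that were called higher, called lower, not called, or dim, for E2 minus vehicle. The TNF receptor signal list holds 4 higher calls of 13 tested genes and the uterine epithelium list 6 higher calls of 11.

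Markers of several cell types moved with estradiol beside the members, and their part in the members' differences was not tested. Of 10 tested macrophage markers 4 were higher in E2 than in vehicle rats, with Clec4a1 at 1.71 ± 0.33 and Cd68 at 1.59 ± 0.38, Cd163 and Marco were dim, and the summed intensity of the 12 measured markers ran from 3382 to 5310 in E2 rats and from 1665 to 5276 in vehicle rats. Of 5 tested neutrophil markers 4 were higher and 1 lower, with S100a9 at 2.73 ± 0.38 and Fcgr3a at 2.61 ± 0.31, and the summed intensity of 10 markers ran from 1169 to 1798 in E2 rats and from 423 to 789 in vehicle rats. The granule protein genes Elane, Ctsg, Camp and Mmp8 and the chemokine receptor gene Cxcr2 were dim, and Mpo differed by -1.17 ± 0.34. Of 11 tested epithelial markers 6 were higher and 1 lower, with Elf3 at 3.53 ± 0.29 and Krt8 at 2.93 ± 0.38. Their summed intensity ran from 14013 to 16590 in E2 rats and from 3832 to 7957 in vehicle rats. Lymphocyte markers gave no call: 13 of 19 were dim, including Cd3d, Cd3g and Ms4a1, and their sum ran from 991 to 1291 in E2 rats and from 1139 to 1631 in vehicle rats.

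Other markers were lower in E2 than in vehicle rats, beside the members that fell. Of 8 endothelial markers 6 were lower and 0 higher, with Cldn5 at -1.12 ± 0.26 and Cdh5 at -1.02 ± 0.23, and their sum ran from 2107 to 2348 in E2 rats and from 2888 to 5721 in vehicle rats. Of 7 tested adipocyte markers 5 were lower, with Fabp4 at -3.59 ± 1.12 and Lpl at -2.44 ± 0.55, and the sum of 8 ran from 2610 to 2855 in E2 rats and from 2331 to 15264 in vehicle rats. Cidec, 1 of the 5, had 39.8, 71.3 and 66.8 in E2 rats, against 1643, 158 and 147 in vehicle rats. Vehicle rat 1 thus stood far above the others. Adipoq, also among the 7, was not called. It had 2109, 1908 and 1798 in E2 rats, against 2342, 336 and 387 in vehicle rats. Of 5 tested eosinophil and mast cell markers Kit was higher (1.83 ± 0.27) and Cpa3 (-1.11 ± 0.28) and Gata2 were lower, and of 6 tested dendritic cell markers only Clec9a was called (-0.56 ± 0.18). Stroma had 2 of 12 higher, Col1a1 (1.48 ± 0.24) and Col1a2 (1.08 ± 0.25), and myometrium 2 of 8, Des (1.12 ± 0.26) and Actg2 (1.08 ± 0.25). In E2+3-MC against 3-MC rats the same 4 macrophage markers and 4 neutrophil markers were called higher, and no endothelial marker was called. The median difference of the 8 endothelial markers was still -0.52 there, beside -0.97 in E2 against vehicle rats. Of all genes, 1.39% were called lower in that pair, beside 9.44% in E2 against vehicle rats. Of the 7 tested adipocyte markers, Adipoq was called higher in E2+3-MC than in 3-MC rats and 0 were called lower. The median difference of the 7 was 0.51 in that pair and -1.71 in E2 against vehicle rats. In 3-MC against vehicle rats, without estradiol, it was -1.17 with 0 called.

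The shares of promoters that hold each motif were counted for the members and for all genes. Among the 65 member promoters 36.9% held the half-site GGTCA, beside 40.2% of 27457 promoters, 52.3% held the NF-κB letters beside 48.3%, and 12.3% held TGANTCA beside 7.39%. The AhR core GCGTG was in 27.7% beside 30.9%, TATAAA was in 18.5% beside 14.3%, and the full estrogen response element, GGTCA and TGACC around 3 bases of any kind, was in 0 member promoters, beside 0.0219% of all. Promoters were matched for 7 members called higher and 3 called lower in E2 than in vehicle rats. The NF-κB letters were in 6 of the 7 and 0 of the 3, the half-site in 2 and 1, the AhR core in 3 and 0, the AP-1 letters in 2 and 0, the TATA box in 2 and 0, and the full element in 0 and 0. With 10 promoters and 6 motifs these counts are a description only. Both strands were searched, matches of different motifs were counted separately where they overlapped, as the half-site does within the full element, and a match describes letters only.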

How the data were processed

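Uterine RNA of 12 rats, 3 in each group, was measured on 1 array per rat. The deposited intensity values, on a linear scale, are PLIER summaries from Affymetrix Expression Console, per the submitters' processing notes; no source used here gives versions, settings or a normalization between arrays. Of 29214 probe sets, 15310 carry 1 symbol, 323 several and 13581 none; 15279 matched RefSeq (GRCr8) by Entrez ID, and 0 symbols changed. No member had more than 1 single-symbol probe set. The values were transformed as log2(intensity + 16), the lowest 30% of 14506 genes by mean were left out, and 10154 were tested with limma 3.58.1 in R 4.3.3 (lmFit, eBayes, all 12 arrays, 8 residual and 8.92 prior degrees of freedom), two-sided, with Benjamini-Hochberg adjustment over all genes tested and a threshold of 0.05. Such differences understate changes of dim genes, and brightness was not compared between probe sets. Dim genes' values come from the same fit with no genes left out. The fits were also run on simulated data with independent noise in each gene and no array that stood apart. That does not test how an array such as vehicle rat 1 acts on the calls. Members, lists, tests and named genes (called members, the 2 members of lowest p in each role without a call, the 5 members of highest mean level, dim members and up to 3 called genes per list) were chosen with earlier results of these data known. The labels give separate rats and no batch; precision is limited by the number of arrays. The alternatives tried were another scaling, offset, dim filter, probe set rule, variance prior or set of arrays, the rat number as a block, and each rat left out in turn.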

Additional observations from a re-analysis of the deposited data

How the results depend on the processing

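All 27 results called for a single member in a comparison kept their direction in every alternative, and 15 of them stayed past the threshold in every alternative in which the gene was tested, among them Il1rn, Il13ra2, Il18 and Tnfrsf19 in all 3 estradiol comparisons and Il11ra1, Il17rb and Tnfsf10 in E2 against vehicle rats. A total of 64 uncalled values changed sign. For E2 against vehicle rats, with 13 members and 18.1% of all genes called, quantile normalization gave 21 (12 higher and 9 lower, in place of 9 and 4) beside 38.4% of all genes, the fit of only the groups compared 7 beside 9.46%, and leaving out the lowest 50% of genes 6, of 24 members tested, beside 16.3%. Leaving out 1 rat gave 8 to 17 calls, beside 9.84% to 34.9%: 8 without vehicle rat 2 or E2 rat 3, and 11 (4 higher, 7 lower) without vehicle rat 3. For E2+3-MC against vehicle rats, with 6 beside 7.84%, quantile normalization gave 14 (9 higher, 5 lower) beside 26.1%, leaving out the lowest 50% gave 2 beside 7.46%, the fit of only the groups compared 4 beside 2.92%, and leaving out 1 rat gave 5 to 14 beside 4.38% to 26.6%, the highest without vehicle rat 1. For E2+3-MC against 3-MC rats, with 8 beside 8.21%, leaving out the lowest 50% gave 4 beside 8.52%, quantile normalization 11 beside 26.1%, the fit of only the groups compared 12 beside 22.4%, and leaving out 1 rat 4 to 11 beside 4.06% to 21.4%, with 4 without 3-MC rat 1, 3-MC rat 2 or E2+3-MC rat 3 and 5 without E2 rat 2, E2 rat 3, 3-MC rat 3 or E2+3-MC rat 1. For E2+3-MC against E2 rats, with 0, there was 1 call (Tnfsf10) with only the groups compared, beside 1.42% of all genes, and leaving out 1 rat gave 0 to 1 (Il11ra1, without vehicle rat 1, beside 1.1%). The counts for 3-MC alone and for the interaction were 0 in every alternative. Fewer genes tested and fewer arrays lower some of these counts by construction; otherwise the cause was not tested. The median of all genes between E2 and vehicle rats was -0.11 as deposited, -0.03 after quantile normalization and 0.06 after median centring; between E2+3-MC and E2 rats it was 0.15, -0.01 and -0.11, and for the interaction 0.19, -0.001 and 0.01. Same-numbered rats had correlations of their deviations from -0.27 to 0.24, over 0.1 in 8 of 18 pairs. No pairwise comparison made here had all 3 of its pairs over 0.1, so the numbers were not taken as a pairing. Among the 3 treated groups, however, all 9 same-numbered pairs were positive, and all 3 pairs of E2 with 3-MC rats were over 0.1; with vehicle rats 4 of 9 were positive. With the number as a replicate block, 18 members were called between E2 and vehicle rats (11 higher, 7 lower) beside 25.1% of all genes, 6 between E2+3-MC and vehicle rats beside 10.7%, and 9 between E2+3-MC and 3-MC rats beside 11.2%. Low signal over background limits what the values of the 43 dim members can show.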

Other observations

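A probe set that carries both the symbol Il13ra1 and that of a pseudogene, Il13ra1-ps1, was left out of the tests because its signal cannot be assigned to either. Its intensities were 337, 239 and 389 in E2+3-MC rats, 421, 290 and 308 in E2 rats, 238, 188 and 219 in 3-MC rats and 414, 175 and 127 in vehicle rats. The Il13ra1 probe set with a single symbol had 414, 324 and 489 in E2+3-MC rats, 517, 358 and 397 in E2 rats, 306, 239 and 281 in 3-MC rats and 520, 231 and 170 in vehicle rats, and in both probe sets vehicle rat 1 was the highest of its group.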
